A study of Mus musculus with 18 samples.

Results

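The co-culture effect common to 3 time points was taken as the difference between astrocytes cultured with neurons and astrocytes cultured alone, within pairs of libraries that shared a replicate number and a day. Of the 18 libraries of the series, 14 formed the 7 pairs used here, namely replicates 2 and 3 at days 2, 4 and 7 and replicate 1 at day 4. The genes described are those whose log2 CPM (reads scaled to library size) differed in one direction in 7 of 7 pairs. They numbered 419 of 15046 tested genes, with 178 higher and 241 lower in co-culture, out of 26301 genes in the count table. This direction is how the genes were chosen, so the sizes given for it below are a description, and the test is edgeR's quasi-likelihood test over all tested genes with each pair as a block.

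The co-culture libraries came from astrocytes of newborn mouse cortex that had been expanded for about 2 weeks in medium with 10% fetal bovine serum, moved to N2 medium when confluent, and given hippocampal neurons of newborn TdTomato+ mice. At day 2, 4 or 7 the cells were detached and sorted by TdTomato, the red fluorescent protein carried by the neurons, with gates set on control astrocytes. The alone libraries came from the same kind of astrocyte culture at the same days without neurons, and the title of the series asks which astrocyte transcripts neuronal contact regulates. Total RNA was depleted of ribosomal RNA before library construction. The labels give 1 date per replicate number, so the 7 pairs come from 3 dates, and they do not say whether dates are separate animals, so every p-value measures the spread between these cultures.

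Astrocytes take up glutamate and potassium, supply lactate and lipids, and shape synapses through secreted and contact signals. Neurons signal back through transmitters, Notch ligands and growth factors. Cultured astrocytes also carry programmes of reactivity and of proliferation, which serum favours: cytokines of the interleukin 6 family and interferons raise acute-phase and antigen-presentation genes, and growth factors acting through ERK raise the D-type cyclins that start the cell cycle.

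The 14 libraries held 14102928 to 32623556 reads, so that 3 reads, taken as the floor of counting, equal 0.0912 to 0.226 CPM (counting error only). The co-culture library of day 4 replicate 3 stood apart: it was the smallest and had a read for 14566 genes, against 18487 in its partner. In its pair the differences of all genes were the most spread (SD 1.66 log2 units), and in the pair of day 4 replicate 2 the least (0.49). Co-culture libraries had fewer genes with a read in 6 of 7 pairs, and in 5 of 7 after all libraries were thinned to the size of the smallest, as the plot of genes with a read shows. The alone library of day 7 replicate 2 had the lowest Lgals3bp, Ggta1 and Steap4 of the 7 alone libraries (77.1, 87.7 and 89.6 CPM), genes of the immune groups below. The summed CPM of 29 astrocyte identity genes ran from 6892 to 15478 in co-culture and from 4068 to 13969 alone.

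No gene passed an adjusted p of 0.05 between co-culture and alone (0% of 15046, edgeR with Benjamini-Hochberg adjustment), where the smallest adjusted p was 0.671. At an unadjusted p under 0.05 there were 1004 genes (6.67%), 498 higher (3.31%) and 506 lower (3.36%). DESeq2 with the same pair block called 44 genes, 32 higher and 12 lower, and limma-voom, in which weights reflect each library's quality, called 0 (1156 at an unadjusted p under 0.05). Of the 44, 12 were among the 178 genes higher in every pair and 6 among the 241 lower in every pair. Genes named below that DESeq2 called were H2-D1, H2-K1, Tap1, Osmr, Lgals3bp, Hspa5, Snx19, Gsn and Uba1, all higher. The lower ones were Aldh1a1, Anxa3, Ccnd1, Fgf1, Neat1 and ND1. The words higher and lower below give the measured direction in the pairs and not a call by edgeR.

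Sharing of direction was limited. The 419 genes with one sign in 7 of 7 pairs are 2.78% of those tested (higher 1.18%, lower 1.6%), while the commonest counts were 3 pairs higher (3846 genes) and 4 pairs higher (3568 genes). Groups overlapped for nearly all: in 1 gene (0.00665%) did no co-culture library reach the lowest alone library. That gene, named after its values were seen, was Gatc, a subunit of the mitochondrial glutamyl-tRNA amidotransferase. It had 1.20, 7.37 and 9.77 CPM (lowest, median and highest) in co-culture and 11.2, 12.8 and 20.1 CPM alone, a log2 fold change of -1.30 (SE 0.35). Gatc overlaps Srsf9 on the other strand, and reads of overlapping genes were not told apart.

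**Figure D1:**
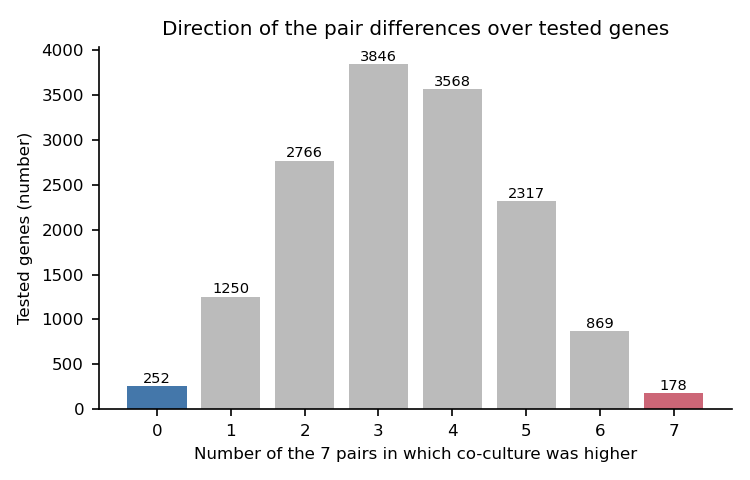
Number of tested genes (vertical axis) by the number of the 7 pairs in which the co-culture library was higher (horizontal axis). The outer coloured bars hold the 178 genes higher in every pair and 252 genes higher in no pair, of which 241 were lower in every pair.

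Genes higher in every pair had small differences and genes lower in every pair larger ones at lower levels. Fitted log2 fold changes of the 178 had a median of 0.38 (0.13 to 1.58) and those of the 241 a median of -0.77 (-4.17 to -0.15), against -0.04 over all tested genes. Mean log2 CPM had a median of 5.47 in the higher genes, 3.18 in the lower genes and 4.21 in all. A read was missing in at least 1 co-culture library for 68 of the 241 lower genes (28.2%), against 13.3% of all tested genes. A read was missing in at least 1 alone library for 1 of the 178 higher genes (0.562%), against 2.89% of all. The converse counts are 0 by the choice of genes, since the higher library of a pair must hold a read. Co-culture libraries also had the lower number of genes with a read given above. The part of that shortfall in the lower class was not tested. Asking for more than 0.2 log2 units in every pair left 10 higher and 51 lower genes, and more than 0.3 left 0 and 33. Just inside the limit, with the weakest pair nearly at zero, stood Acad11, Astn2 and Zhx2 (weakest pair 1.1e-05, 3.4e-05 and 5e-05 log2 units) among the higher genes and Pus7 (0.0020) among the lower.

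**Figure D2:**
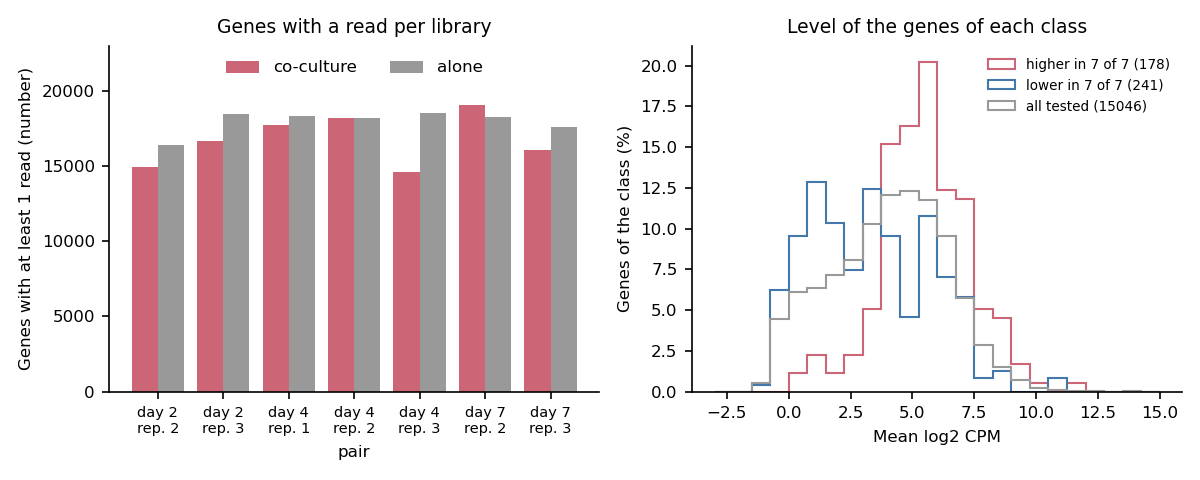
Left, genes with at least 1 read in the co-culture (red) and alone (grey) library of each pair, where the day 4 replicate 3 co-culture library is lowest at 14566. Right, percent of genes by mean log2 CPM for the 178 higher, 241 lower and 15046 tested genes, with medians of 5.47, 3.18 and 4.21.

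The 12 higher genes with the largest weakest pair were Gm5576, Ssh3, Rara, H2-Q9, Nudt6, Snx19, Hspa2, Lgals3bp, Wdr73, Slc27a1, Akr1b3 and Daglb. Ssh3, a slingshot phosphatase that activates the actin-severing protein cofilin, had 21.8, 31.4 and 57.1 CPM in co-culture and 15.5, 17.96 and 36.1 CPM alone (log2 fold change 0.70, SE 0.17). Snx19, a sorting nexin, had 116, 142 and 174 CPM in co-culture and 93.0, 102 and 131 CPM alone (0.40, SE 0.10). Slc27a1, a transporter of long-chain fatty acids, had 45.9, 54.0 and 87.5 CPM in co-culture and 35.5, 39.8 and 56.1 CPM alone (0.42, SE 0.11). In each of them the ranges of co-culture and alone overlapped. Daglb, which makes the endocannabinoid 2-arachidonoylglycerol, had a fold change of 0.42 (SE 0.13), Akr1b3, aldose reductase, 0.56 (SE 0.18) and Hspa2, a heat shock protein of the HSP70 family, 0.42 (SE 0.13). Gm5576 carries a predicted-gene name and may share reads with near-identical copies, and Nudt6 overlaps Fgf2 and Spata5.

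**Figure D3:**
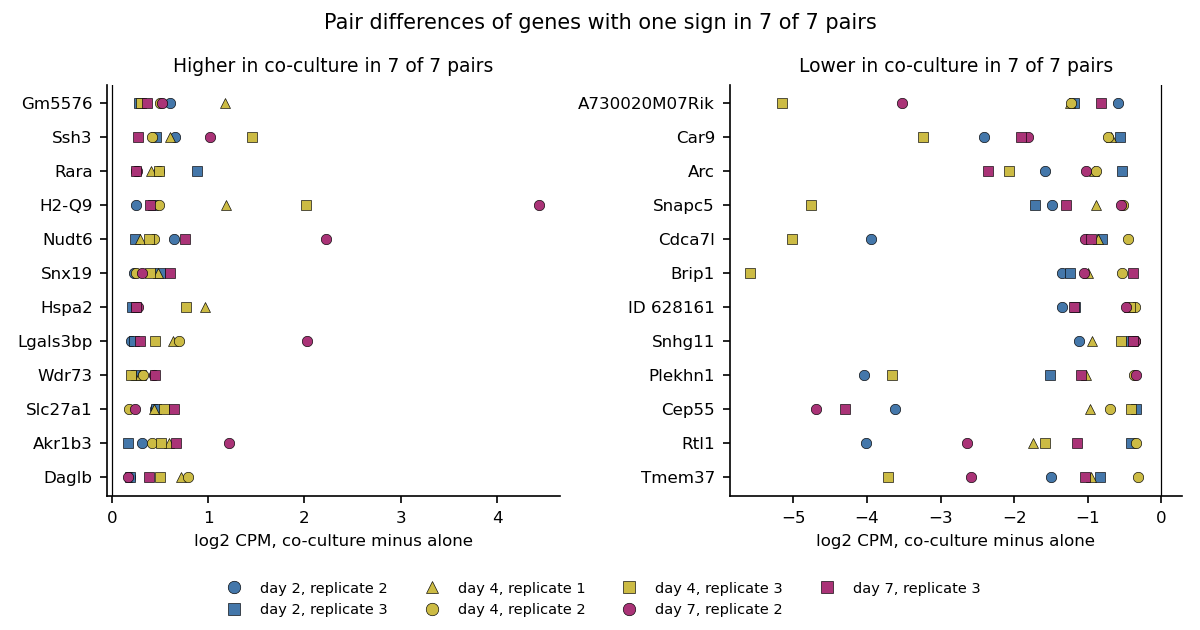
Difference in log2 CPM, co-culture minus alone (horizontal axis), in each of the 7 pairs for the 12 higher and 12 lower genes with the largest weakest pair. Colour marks the day and shape the replicate number; the axes differ in range, and single pairs stand far out, such as day 7 replicate 2 for H2-Q9 (4.44) and day 4 replicate 3 for Brip1 (-5.58).

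H2-D1 and H2-Q9, heavy chains of antigen presentation, were higher in every pair. H2-D1, a classical major histocompatibility complex (MHC) class I heavy chain, had 235, 808 and 2117 CPM in co-culture and 150, 189 and 1498 CPM alone, with a log2 fold change of 1.01 (SE 0.23), and DESeq2 called it. Its pair differences were 0.50 and 0.62 at day 2 in replicates 2 and 3, 1.27, 0.05 and 1.03 at day 4 in replicates 1, 2 and 3, and 2.48 and 1.22 at day 7 in replicates 2 and 3. The pair of day 4 replicate 2 thus held nearly no difference (1087 CPM in co-culture and 1050 alone). The related heavy chains H2-Q9 (1.19, SE 0.42), H2-Q1 (0.99, SE 0.39), H2-Q2 (0.98, SE 0.50) and H2-T22 (0.64, SE 0.21) were also higher in 7 of 7 pairs. H2-Q2 was near the floor in some libraries, with 0.526, 2.345 and 9.99 CPM in co-culture and 0.0463, 0.425 and 7.995 CPM alone. Without day 7 replicate 2 H2-Q9 was 0.76 and H2-T22 0.41. Of these 4, H2-Q9 was named by rule and the others after their values were seen, and since MHC genes have near-identical copies, reads may be divided among them in a way that is not known. H2-K1, the other classical heavy chain, and Tap1, the peptide transporter, were higher in 5 and 6 of 7 pairs (0.86, SE 0.27 and 0.62, SE 0.16).

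Motifs of fixed letters were looked for in RefSeq promoters, from 250 bases before to 50 after the gene start (GRCm38.p6, both strands), which 11164 tested genes had. The 4 promoters below were chosen after values and motifs were seen and are shown because their genes have values given here, and each holds the motif of a factor known to act on such genes, in capitals. In H2-D1 (chr17:35262844-35263143, plus strand) it is the kappaB motif, spelled by the capitals, in Ddx60 (chr8:61927837-61928136, plus strand) 2 copies of the interferon element, TTTC followed by any 2 bases and TTTC again, read on the minus strand, in Steap4 (chr5:7960222-7960521, plus strand) the STAT motif TTCCNGGAA, and in Mcm5 (chr8:75109259-75109558, plus strand) the E2F motifs TTTCGCGC and, on the minus strand and overlapping it, TTTGGCGC.
H2-D1: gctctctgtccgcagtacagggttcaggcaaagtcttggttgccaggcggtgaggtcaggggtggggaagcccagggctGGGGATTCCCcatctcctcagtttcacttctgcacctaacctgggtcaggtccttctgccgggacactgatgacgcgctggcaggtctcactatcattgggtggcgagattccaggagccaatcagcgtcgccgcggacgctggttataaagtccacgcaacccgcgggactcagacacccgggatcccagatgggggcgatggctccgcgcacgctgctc
Ddx60: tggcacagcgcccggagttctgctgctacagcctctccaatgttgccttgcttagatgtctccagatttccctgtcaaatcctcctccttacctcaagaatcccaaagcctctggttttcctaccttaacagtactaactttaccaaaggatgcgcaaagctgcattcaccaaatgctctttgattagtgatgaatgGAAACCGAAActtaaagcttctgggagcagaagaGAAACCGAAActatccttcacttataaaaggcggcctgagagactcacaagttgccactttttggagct
Steap4: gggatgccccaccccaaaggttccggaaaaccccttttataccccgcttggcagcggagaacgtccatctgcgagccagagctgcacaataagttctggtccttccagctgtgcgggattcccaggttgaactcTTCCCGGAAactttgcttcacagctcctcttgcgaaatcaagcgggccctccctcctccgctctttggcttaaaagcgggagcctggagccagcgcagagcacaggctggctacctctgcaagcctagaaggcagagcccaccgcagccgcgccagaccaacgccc
Mcm5: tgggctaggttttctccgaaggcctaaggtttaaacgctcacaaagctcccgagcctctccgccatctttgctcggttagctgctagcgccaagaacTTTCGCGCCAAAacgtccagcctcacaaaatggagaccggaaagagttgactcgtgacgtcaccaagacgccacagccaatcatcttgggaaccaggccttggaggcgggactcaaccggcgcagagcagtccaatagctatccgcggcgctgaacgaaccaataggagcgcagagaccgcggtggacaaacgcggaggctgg
The kappaB motif stood in 1 of the 143 higher genes with a promoter (0.699%) and in 0.143% of all 11164, and the interferon element in 4.9% and 3.72%. The STAT motif stood in 0.699% of the higher genes and 1.52% of all, and either E2F motif in 2.48% of the 161 lower genes with a promoter and 1.76% of all. The hypoxia element ACGTG was also looked for and stood in 36.4% of the higher genes, 24.8% of the lower genes and 28.6% of all. The promoter of Car9, a gene lower in every pair, held 1 copy and is not shown. The matches are a description of these windows, and binding was not measured.

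Most interferon-induced genes had fitted values above zero but did not keep that sign in every pair. Of 25 tested genes of the interferon response list, 0 had one sign in 7 of 7 pairs, against 2.78% of all tested genes. None passed the adjusted p. Fitted values were above zero for 23 and below for 2, against 6659 and 8387 of all 15046 tested genes. The list's median was 0.28 against -0.04 for all tested genes. The median pair difference of the list was 1.57 at day 7 replicate 2 and between -0.16 and 0.33 in the other 6 pairs. Without that pair the fitted median was 0.077, with 17 above and 8 below zero. Ddx60, an interferon-induced helicase outside that list, was higher in 7 of 7 pairs, with 21.3, 87.7 and 107 CPM in co-culture and 6.13, 32.0 and 99.4 CPM alone (0.91, SE 0.25). Its differences were 0.66 and 1.30 at day 2, 0.27, 0.03 and 0.20 at day 4, and 2.21 and 1.78 at day 7. Igtp, an interferon-induced GTPase (0.57, SE 0.22), Dhx58, a regulator of RNA sensing (0.54, SE 0.18), and Ube2l6, which carries the ubiquitin-like protein ISG15 (0.57, SE 0.20), were picked after their values were seen and were higher in 7 of 7 pairs, by at least 0.03, 0.03 and 0.04 log2 units. Without day 7 replicate 2 Igtp was 0.35 and Ube2l6 0.35.

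Some genes described in reactive astrocytes were higher in every pair. Of 12 tested pan-reactive genes 4 were higher in every pair and 0 lower, against 1.18% and 1.6% of all tested genes, and the list's median was 0.23. Serpina3n, a serine protease inhibitor and marker of reactive astrocytes, had 123, 362 and 1987 CPM in co-culture and 28.0, 179 and 822 CPM alone (1.11, SE 0.50). Osmr, the receptor subunit for oncostatin M, had 317, 391 and 708 CPM in co-culture and 203, 318 and 437 CPM alone (0.57, SE 0.18). Cp, ceruloplasmin, a copper-binding ferroxidase of the acute phase, had 2271, 3712 and 8765 CPM in co-culture and 993, 2526 and 5230 CPM alone (0.73, SE 0.24). Steap4, a metalloreductase, had 294, 465 and 886 CPM in co-culture and 89.6, 343 and 707 CPM alone (0.85, SE 0.33). The 4 genes stood highest in co-culture in the pair of day 7 replicate 2, where Serpina3n had 1987 CPM in co-culture and 54.8 alone, and their ranges overlapped. Without that pair their fold changes were 0.65, 0.39, 0.49 and 0.50 in the order given. Il6st, the signalling subunit that Osmr shares with the other receptors of the interleukin 6 family, was 0.36 (SE 0.13) and Relb, a subunit of NF-kappaB, 0.49 (SE 0.16), both higher in 7 of 7 pairs and picked after their values were seen.

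Of 12 tested genes of the A1 reactive list, 2 were higher in every pair, against 1.18% of all tested genes. They were H2-D1 and Ggta1, a galactosyltransferase (0.45, SE 0.15). In that list 11 genes had a fitted value above zero, against 6659 of 15046 of all. The list's median was 0.56, or 0.36 without day 7 replicate 2. Of 12 tested A2 genes, 0 had one sign in every pair, against 2.78% of all tested genes (median 0.06). Lgals3bp, a secreted glycoprotein that binds galectins, had 161, 297 and 542 CPM in co-culture and 77.1, 177 and 472 CPM alone (0.64, SE 0.19, or 0.42 without day 7 replicate 2). Gfap, the intermediate filament that marks reactive astrocytes, had 185, 641 and 2444 CPM in co-culture and 85.6, 687 and 2067 CPM alone, and was higher in 4 of 7 pairs (0.19, SE 0.16). Microglial transcripts differed between co-culture and alone in some pairs. The summed CPM of 20 microglia and macrophage markers was 2.16 times as high in co-culture as alone at day 2 replicate 2, 2.04 times at day 7 replicate 2, 1.55 times at day 4 replicate 3 and 0.898 to 1.29 times in the other 4 pairs, running from 49.6 to 679 CPM in co-culture and from 47.5 to 332 CPM alone, with 6 to 20 markers read per co-culture library and 14 to 20 per alone library and no marker at 0 in all libraries. Lyz2, a lysozyme of macrophages and microglia, had 5.66, 46.6 and 230 CPM in co-culture and 2.09, 34.4 and 207 CPM alone and was higher in 5 of 7 pairs (0.75, SE 0.33). The part of these cells in the reactive, antigen and interferon genes was not tested.

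**Figure D4:**
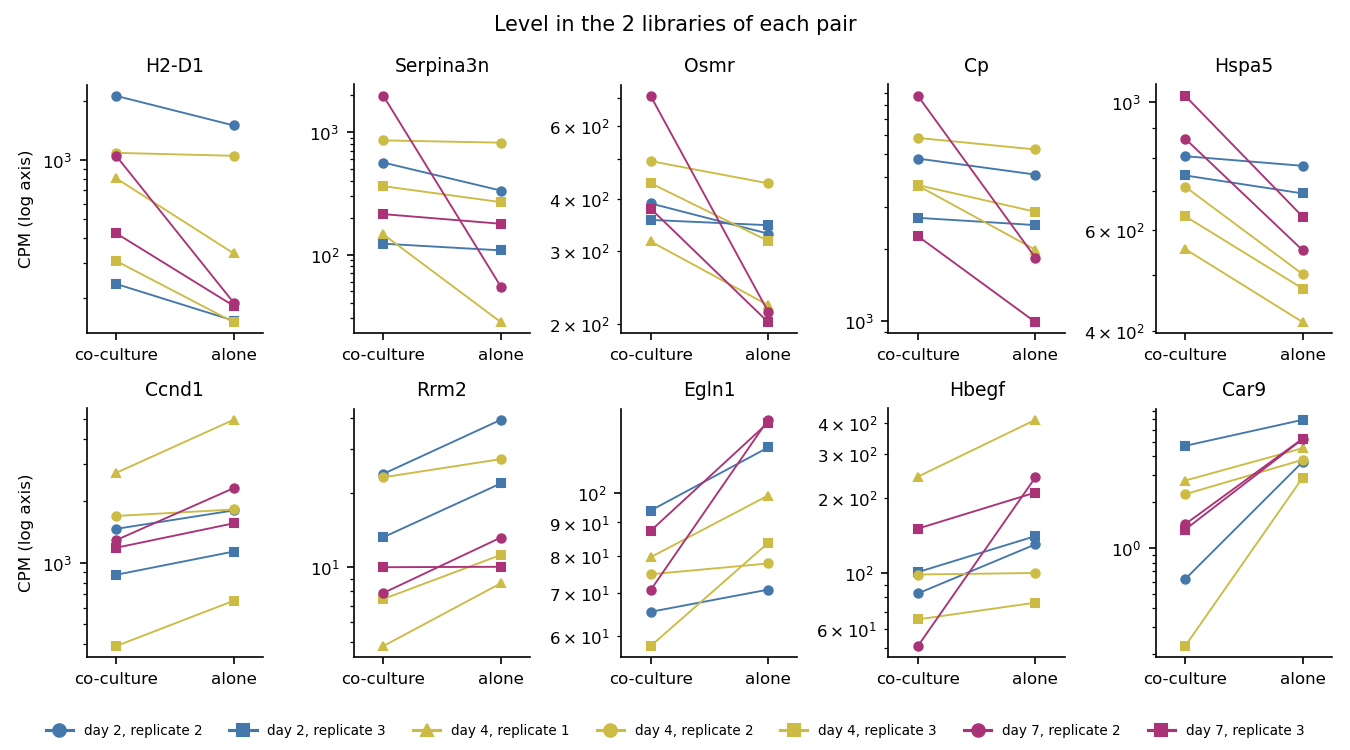
CPM on log axes of 10 genes in the co-culture (left) and alone (right) library of each pair, joined by a line; colour marks the day and shape the replicate number. Every line of the upper row runs higher in co-culture and every line of the lower row lower in co-culture, with slopes near zero in some pairs, such as 1087 against 1050 CPM for H2-D1 at day 4 replicate 2.

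Genes of protein folding, lipid supply and retinoid metabolism gave single members with one direction. Hspa5, the chaperone BiP of the endoplasmic reticulum, had 555, 745 and 1025 CPM in co-culture and 415, 553 and 775 CPM alone (0.41, SE 0.12), and DESeq2 called it. Of 28 tested genes of the unfolded protein and integrated stress response list it alone had one sign. That is 3.57%, against 2.78% of all tested genes, and the list's median was 0.08. Acat2, an acetyl-CoA acetyltransferase at the start of cholesterol synthesis, was the only one of 27 tested genes of cholesterol synthesis with one sign. That is 3.7%, also near the 2.78% of all tested genes. Acat2 had 11.9, 16.0 and 26.5 CPM in co-culture and 5.88, 11.9 and 20.9 CPM alone (0.46, SE 0.20). Srebf2, which codes for the main activator of that pathway, was higher in 5 of 7 pairs (0.44, SE 0.13). Acly, which makes cytosolic acetyl-CoA from citrate, was higher in all 7 (0.25, SE 0.12) but was picked after its values were seen.

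Rara, the retinoic acid receptor alpha, had 14.2, 17.9 and 23.7 CPM in co-culture and 10.1, 13.5 and 16.9 CPM alone (0.44, SE 0.17). Aldh1a1, a retinaldehyde dehydrogenase that makes retinoic acid, had 135, 205 and 886 CPM in co-culture and 175, 331 and 1123 CPM alone (-0.46, SE 0.10). Aldh1a1, named after its values were seen, was lower by 0.31 to 0.69 log2 units in the 7 pairs, a narrow band over levels that differed several-fold between dates. Slc38a2, a sodium-coupled transporter of neutral amino acids that include glutamine (0.43, SE 0.13), Gsn, the actin-severing protein gelsolin (0.43, SE 0.11), and Uba1, the main ubiquitin-activating enzyme (0.41, SE 0.11), were higher in 7 of 7 pairs and were likewise picked afterwards. Col12a1, a fibril-associated collagen (0.31, SE 0.13), was the only one of 32 tested collagens, laminins and other matrix genes with one sign. That is 3.12%, against 2.78% of all tested genes.

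Cell cycle genes were the list with the most members lower in every pair. Of 33 tested, 5 were lower in 7 of 7 pairs and 0 higher, against 1.6% and 1.18% of all tested genes, 30 had a fitted value below zero against 8387 of 15046 of all, and the median was -0.55. None of the 33 passed the adjusted p, and 8 were lower at an unadjusted p under 0.05. Ccnd1, cyclin D1, had 393, 1285 and 2727 CPM in co-culture and 652, 1792 and 4942 CPM alone (-0.51, SE 0.14), and DESeq2 called it. Its pair differences were -0.30 and -0.37 at day 2, -0.86, -0.11 and -0.73 at day 4, and -0.84 and -0.39 at day 7. Ccnd2, cyclin D2, was lower by a smaller amount, with 851, 1702 and 2538 CPM in co-culture and 937, 1978 and 3485 CPM alone (-0.28, SE 0.13). The ranges overlapped for both cyclins.

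Rrm2, the small subunit of ribonucleotide reductase, had 4.80, 10.0 and 23.9 CPM in co-culture and 8.62, 13.2 and 39.4 CPM alone (-0.55, SE 0.18). Mcm5, a subunit of the replicative helicase, had 0.150, 7.61 and 21.8 CPM in co-culture and 4.97, 8.31 and 30.5 CPM alone (-0.87, SE 0.40), where the lowest value belongs to the sparse day 4 replicate 3 library. Without that pair Mcm5 was -0.53, and with 9 pairs Mcm5 was -0.35 and Rrm2 -0.18. E2f1, an activator of replication genes, was -0.39 (SE 0.22), and -0.08 with 9 pairs. Outside the list, Cdca7l (-1.67, SE 0.65), Brip1, a helicase of DNA repair (-1.38, SE 0.62), and Cep55, a protein of the last step of cell division (-2.20, SE 0.89), were among the 12 lower genes with the largest weakest pair, and each had a co-culture library at 0. Pole, the catalytic subunit of DNA polymerase epsilon (-0.99, SE 0.50), and Dnmt1, the maintenance DNA methyltransferase (-0.32, SE 0.12), were picked after their values were seen. Pole was -0.57 without day 4 replicate 3, and Dnmt1, lower in each of the 7 pairs, was 0.02 with 9 pairs. The list's median was -0.45 without day 4 replicate 3 (2 of 34 above zero) and -0.37 with 9 pairs (10 of 34 above zero). In the pair of day 7 replicate 3 it was 0.12, the one of the 7 pairs above zero. In bulk samples, fewer cycling cells and less of these RNAs per cell cannot be told apart.

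Ligands and feedback genes of growth factor signalling mostly had fitted values below zero. Of 24 tested FGF ligands and ERK feedback genes, 3 were lower in 7 of 7 pairs and 0 higher, against 1.6% and 1.18% of all tested genes, 19 had a fitted value below zero against 8387 of 15046 of all, and the median was -0.33. Besides Ccnd1, which is also on this list, these were Spred2, an inhibitor of Ras-to-ERK signalling, with 17.4, 24.2 and 43.3 CPM in co-culture and 22.4, 37.0 and 68.4 CPM alone (-0.58, SE 0.16), and Etv1, an ETS factor induced by that signalling (-1.66, SE 0.74). Rras2, a Ras-family GTPase picked after its values were seen, had 13.6, 35.7 and 44.5 CPM in co-culture and 29.5, 48.2 and 63.6 CPM alone (-0.72, SE 0.14). Fgf1, a growth factor that astrocytes make, was lower in 6 of 7 pairs (-0.81, SE 0.26, or -0.51 without day 7 replicate 2) and overlaps Arhgap26. Etv5 was lower in 3 of 7 (-0.14, SE 0.17).

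Of 22 tested growth and trophic factors 2 were lower in every pair, against 1.6% of all tested genes, and the median was -0.33, or -0.20 without day 4 replicate 3. Hbegf, a membrane-anchored ligand of the EGF receptor, had 51.1, 98.9 and 244 CPM in co-culture and 76.3, 141 and 412 CPM alone (-0.68, SE 0.21). At day 7 replicate 2 Hbegf had 51.1 CPM in co-culture and 242 alone, and without that pair its fold change was -0.43. Angpt2, a ligand of the endothelial receptor Tie2, was low, with 0.735, 2.48 and 6.61 CPM in co-culture and 1.61, 4.12 and 14.5 CPM alone (-1.01, SE 0.36), and overlaps Mcph1.

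Arc, an immediate early gene known from active neurons, was the only one of 22 tested cAMP and immediate early genes with one sign. That is 4.55%, against 2.78% of all tested genes. Arc had 0, 1.36 and 2.75 CPM in co-culture and 0.289, 3.62 and 4.24 CPM alone (-1.42, SE 0.54). Of 16 tested hypoxia targets, 2 were lower in every pair, against 1.6% of all tested genes. In that list 9 had a fitted value above zero (median 0.08), against 6659 of 15046 of all. Egln1, the prolyl hydroxylase that marks hypoxia-inducible factor for degradation and is itself its target, had 57.9, 74.8 and 93.9 CPM in co-culture and 70.8, 99.1 and 130 CPM alone (-0.40, SE 0.12). Car9, a membrane carbonic anhydrase, had 0.226, 1.43 and 4.69 CPM in co-culture and 2.89, 4.52 and 6.95 CPM alone (-1.64, SE 0.48), and it overlaps Tpm2. Tcf7, a transcription factor of the Wnt pathway, was 1 of 2 genes lower in every pair among 11 tested Wnt targets (-0.79, SE 0.23). The other was Ccnd1, and the share over all tested genes was 1.6%. Tcf7 overlaps Skp1, which had 151067 reads against 10317 for Tcf7.

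The remaining genes among the 12 lower ones with the largest weakest pair were A730020M07Rik, Snapc5, the gene with ID 628161, Snhg11, Plekhn1, Rtl1 and Tmem37. Snhg11, a small nucleolar RNA host gene, had 1.70, 13.8 and 23.4 CPM in co-culture and 3.78, 17.7 and 44.8 CPM alone (-0.58, SE 0.18). Snapc5, a subunit of the complex that starts small nuclear RNA transcription, had 0.301, 3.19 and 6.51 CPM in co-culture and 4.99, 9.57 and 10.7 CPM alone (-1.48, SE 0.47). Rtl1, an imprinted gene derived from a retrotransposon (-1.71, SE 0.61), overlaps Meg3 and Rian, which had 19160 and 7381 reads against its 945. Neat1, the long noncoding RNA of paraspeckles, was picked after its values were seen and had 44.7, 69.4 and 108 CPM in co-culture and 77.5, 106 and 209 CPM alone (-0.73, SE 0.19). Of annotated long noncoding RNAs, 0 were among the 178 higher and 16 among the 241 lower genes (6.64%), against 3.50% of all tested genes, and protein-coding genes made up 97.8% of the higher, 82.6% of the lower and 89.0% of all tested genes.

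Genes of classical astrocyte functions seldom had one sign, as did all tested genes (2.78%), so counts near 0 do not set these lists apart. Of 27 tested identity genes, 1 had one sign, S100b, a calcium-binding protein, which was near the floor, with 0, 0.243 and 3.90 CPM in co-culture and 0.348, 1.47 and 6.87 CPM alone (-2.68, SE 0.91). Of 18 tested genes of transmitter uptake and ion buffering 0 had one sign (median 0.18), and of 30 glycolysis genes 0 (median 0.12). Slc1a3 and Slc1a2, the main astrocytic glutamate transporters, had fold changes of 0.03 (SE 0.17) and 0.18 (SE 0.29), and the sign of each turned with a left-out pair. Glul, glutamine synthetase, had 314, 413 and 539 CPM in co-culture and 187, 447 and 626 CPM alone (0.00, SE 0.16). Aldh1l1 (0.31, SE 0.13) was higher in 5 of 7 pairs and Gja1, the gap junction protein connexin 43 (0.28, SE 0.13), likewise in 5. Aqp4, the water channel of astrocyte endfeet, had 466, 782 and 1522 CPM in co-culture and 202, 569 and 1527 CPM alone and was higher in 4 of 7 (0.32, SE 0.19). Atp1b2, a subunit of the sodium pump, was -0.02 (SE 0.20). The glycolysis genes Gpi1, glucose-6-phosphate isomerase, and Ldhb, a lactate dehydrogenase subunit, were higher in 6 and 5 of 7 pairs (0.23, SE 0.11 and 0.30, SE 0.16). The pair of day 4 replicate 1 had the highest identity median, 0.94, and the other 6 ran from -0.20 to 0.11. The Notch targets Hes1 and Hey1 had fold changes of -0.40 (SE 0.22) and -0.19 (SE 0.28), and of 20 tested Notch genes 0 had one sign.

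**Figure D5:**
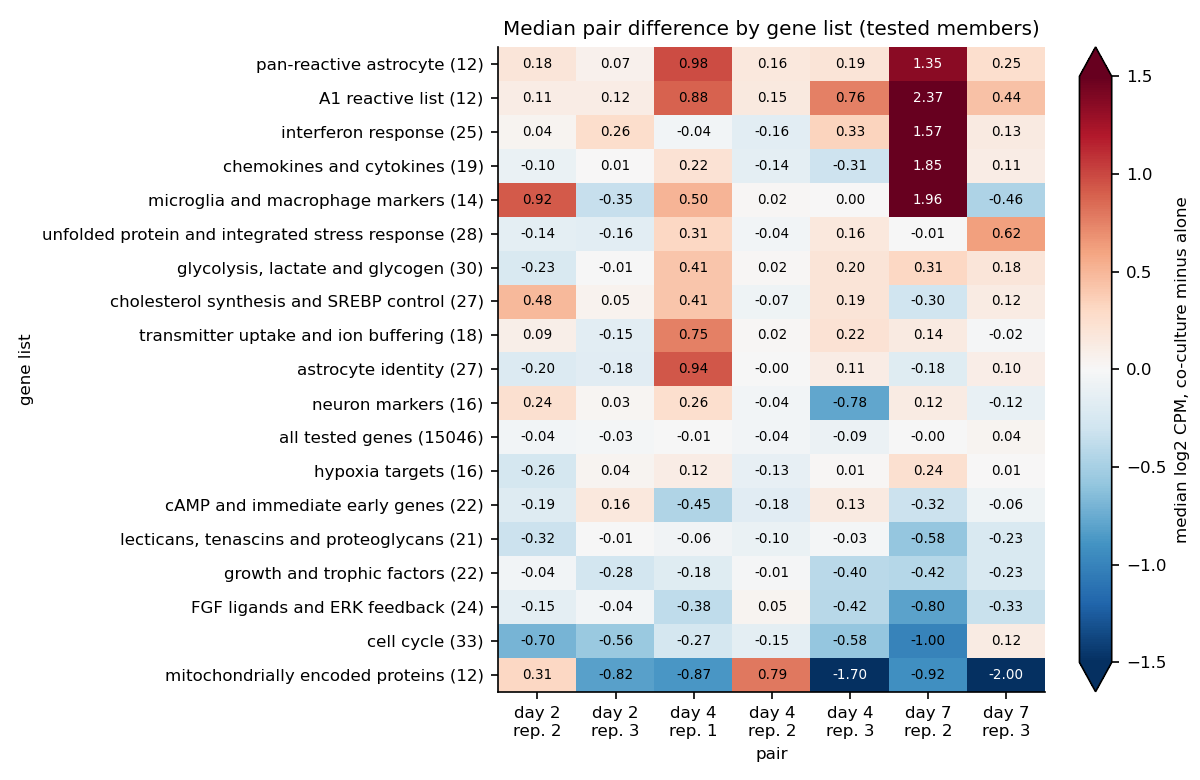
Median difference in log2 CPM, co-culture minus alone, over the tested members (number in brackets) of 18 lists and over all tested genes, in each pair. The pan-reactive and A1 lists are above zero in 7 of 7 pairs with their highest values at day 7 replicate 2 (1.35 and 2.37), and the cell cycle list is below zero in all pairs but day 7 replicate 3 (0.12).

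Transcripts of mitochondrial DNA were lower in most pairs but not in all. Of 12 tested genes, 11 had a fitted value below zero (median -0.71), against 8387 of 15046 of all. One sign was found for 0 of the 12, against 2.78% of all tested genes. List medians were 0.31 and 0.79 at day 2 and day 4 of replicate 2 and below zero in the other 5 pairs, the nearest to zero at -0.82. ND1, a subunit of respiratory complex I, was lower in 6 of 7 pairs (-0.99, SE 0.25) and was called by DESeq2. Markers of other cell types were present at low sums. The sum over 32 neuron markers was 324 to 549 CPM in co-culture and 269 to 646 CPM alone, higher in 4 of 7 pairs. Of 16 tested markers 0 had one sign, against 2.78% of all tested genes. Map2 and Stmn2 made up 71.8% of the neuron marker reads in co-culture and 75.2% alone. The other 16 markers were too low to be tested and had 1562 reads in co-culture and 360 alone, with more in co-culture for 11 and fewer for 4. Dcx, a microtubule protein of young neurons, had 451 reads in the co-culture libraries and 6 in the alone libraries, Nefl, a neurofilament chain, 197 and 0, and Gad2, an enzyme of GABA synthesis, 119 and 0. Snap25, of synaptic vesicle release, had 97 reads in co-culture and 5 alone and Neurod6, a neuronal transcription factor, 63 and 1. Tubb3, a neuronal tubulin, was tested and was 0.04 (SE 0.22). Oligodendrocyte markers summed to 125 to 563 CPM in co-culture and 214 to 628 CPM alone. Gpr17 was lower in every pair (-2.14, SE 0.75) and Cnp higher (0.31, SE 0.11). They were 2 of 10 tested, against a share of 2.78% over all tested genes. Endothelial and mural markers summed to 103 to 196 CPM in co-culture and 94.9 to 158 CPM alone and fibroblast markers to 231 to 498 CPM in co-culture and 239 to 485 CPM alone, with Abcc9 and Thy1 lower in every pair. Abcc9 was near the floor, with 0, 0.342 and 1.43 CPM in co-culture and 0.268, 1.78 and 4.86 CPM alone. The part of these cell types in the shared genes was not tested.

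Differences of single pairs had little in common across all genes. The 21 correlations between the differences of any 2 pairs over the 15046 genes ran from -0.114 to 0.269 with a median of 0.0656, given as a description over genes that are not independent. Within a date, one sign in the 3 days was found for 4038 genes (26.8%) in replicate 2 and 4289 (28.5%) in replicate 3. Of these, 631 genes (4.19% of those tested) had the same sign at both dates and 510 (3.39%) had opposite signs, each in 3 of 3 pairs. With all pairs of a date left out the count with one sign in the remaining pairs was 2490 without replicate 2 and 2442 without replicate 3, and it was 627 without replicate 1.

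No gene passed the adjusted p for a difference of the effect between days (0%, edgeR, 473 at an unadjusted p under 0.05 or 3.14%) or between replicates 3 and 2 (0% of 14979, 584 unadjusted or 3.9%). The 5 genes with the smallest p for days were Miat, Sema3c, Ddx60, Shisa9 and Vcan. Sema3c, a secreted guidance protein, differed by 1.95 and 1.44 log2 units at day 7 and by -0.19 to 0.30 in the 5 earlier pairs. Miat, a long noncoding RNA, differed by -2.51 and -1.56 at day 7 and by -0.32 to 0.57 before. Vcan, the proteoglycan versican, differed by 1.17 and 1.08 at day 7 and by -0.76 to 0.11 before. The adjusted p of each in edgeR's quasi-likelihood test was 0.99955. For dates the genes were Tpt1, Rn28s1, Txndc15, Itgam and Rpl23, of which Rn28s1 is a ribosomal RNA and Itgam a microglial integrin, and the adjusted p of each in that test was 0.985.

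The 2 pairs left out, replicate 1 at day 2 and at day 7, were read as a description, since in 1 library of each a single RNA took 92.5% of the reads (ID 19791, alone at day 2) or 40.5% (the mitochondrial ribosomal RNA mt-Rnr2, co-culture at day 7). At day 2, 143 of the 178 higher genes were higher (80.3%) against 65.2% of all tested genes, and 91 of the 241 lower genes were lower (37.8%) against 32.2%. At day 7, 81 of the 178 were higher (45.5%) against 41.6%, and 148 of the 241 were lower (61.4%) against 58.0%. With both pairs included, 119 genes had one sign in 9 of 9 pairs, 78 higher and 41 lower. In these 2 pairs H2-D1 differed by 0.87 and 1.07 log2 units and Serpina3n by 1.34 and 0.51. Steap4 differed by 2.03 at day 2 and -3.31 at day 7, Osmr by 1.15 and -1.05, Cp by 0.74 and -1.05, Lgals3bp by 1.16 and -1.23, and Relb by 1.26 and -1.61, so that all 5 were lower in co-culture in the left-out pair of day 7. Hspa5 differed by 0.84 and -0.80, and Ccnd1 differed by 0.45 and -2.23. Of the other cell cycle genes lower in 7 of 7 pairs, Mcm5 differed by 7.82 and 2.54, Rrm2 by -0.05 and 3.08, E2f1 by -0.55 and 2.89, and Ccnd2 by 0.02 and -1.30.

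The classes differed in composition as well as level. The longest annotated transcript had a median GC content of 53.5% in higher, 48.8% in lower and 49.7% in all tested genes, with median lengths of 3442, 3380 and 3468 bases, for the 97.2%, 84.7% and 89.7% of genes with a value. Across genes, the rank correlation of the pair difference with GC content ran from -0.104 to 0.330 over the 7 pairs and with mean log2 CPM from 0.011 to 0.329. Their part in the classes was not tested. A gene with reads overlapped 39 of the 178 higher and 58 of the 241 lower genes. The share over all tested genes was not computed, so these counts do not show a trait of the classes.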

How the data were processed

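The authors deposited 1 table of read counts per gene for 18 libraries. The tools named in the submitters' processing notes are Subread and featureCounts, and the build is mm9. Versions, strand use and any filter are not given in the sources used. Of the table's other columns, 17 hold correlations between libraries and were not used. Columns were matched to samples by name. Symbols came from RefSeq and GENCODE for 24207 of 26301 Entrez IDs. RefSeq GRCm38.p6 gave promoters, transcript features and overlaps, and no coordinates of mm9 are given.

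Counts of the 14 libraries were analysed in R 4.3.3 with edgeR 4.0.16: filterByExpr by kind of culture (minimum count 10, total 15), TMM scaling (factors 0.937 to 1.10), quasi-likelihood fits with pair and co-culture as terms, and Benjamini-Hochberg adjustment with a threshold of 0.05. Pair differences are of log2 CPM with a prior count of 2. SE is the fitted log2 fold change divided by the root of F. The common biological coefficient of variation was 0.394. Pairing comes from the replicate number and day in the labels. The 2 libraries of a pair deviated together from their groups (r 0.367 to 0.499 across genes). The procedure was tested on simulated counts.

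Members, the 38 gene lists (841 of 843 memberships matched) and the tests were chosen with earlier results of these data known. Named are the 12 higher and 12 lower genes of mean log2 CPM of at least 1 with the largest weakest pair, up to 4 one-sign members per list, 24 genes whatever their result (of which 1 is not reported here and 4, Dcx, Nefl, Hes5 and Hmgcs1, had too few reads to be tested), and the 5 smallest p for days and for dates; others are said to be picked after their values were seen. Alternatives were DESeq2 1.42.0, limma-voom (limma 3.58.1), other scalings and filters, no block, and left-out pairs; thinned reads and some list medians were added after seeing the data.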

Additional observations from a re-analysis of the deposited data

Results flagged for a closer look

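Pair differences were taken in 84 sets of 7 (mostly genes with one sign, and list medians). In 19 of them 1 pair stood apart from the other 6 by Dixon's criterion. Chance exceeds that criterion in about 1 of 20 sets of independent, unselected values. These sets share the same 7 pairs and most were chosen for one sign, so no chance rate is known for them. The pair that stood apart was day 7 replicate 2 in 11 sets, day 4 replicate 3 in 6 and another pair in 2. At day 7 replicate 2 the log2 differences, co-culture minus alone, were 1.38 for Ggta1, 4.44 for H2-Q9, 2.19 for H2-T22, 2.03 for Lgals3bp, 2.22 for Nudt6 and 1.98 for Ube2l6. In the same pair they were -1.29 for Anxa3, -2.24 for Hbegf and -2.78 for Sox8. The median of the A1 reactive list was 2.37 there and that of the interferon response list 1.57. At day 4 replicate 3, whose co-culture library had a read for the fewest genes, the differences were -5.58 for Brip1, -4.15 for Gpr17, -4.40 for Mcm5, -5.90 for Pole, -4.76 for Snapc5 and -2.45 for Tcf7. Of these, Pole had 0.0752 CPM in that co-culture library and 9.77 alone. The other two were Rara at day 2 replicate 3 (0.89) and Gm5576 at day 4 replicate 1 (1.17).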

How the results depend on the processing

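No gene was called by edgeR under any alternative scaling, filter, block or left-out pair, including the fit with no replicate block and day as a term (0 called, 272 at an unadjusted p under 0.05), while DESeq2 called 44, a difference whose cause was not tested. The count of 419 genes with one sign was 119 with 9 pairs, 61 with every difference over 0.2 log2, 571 to 887 when 1 pair was left out (571 without day 7 replicate 2, 628 without day 4 replicate 3, 887 without day 4 replicate 2), and 627 to 2490 when 1 replicate was, where fewer pairs have to share a sign. Upper-quartile scaling gave 134 higher and 290 lower genes and a minimum mean of 10 CPM 148 and 133, against 178 and 241. Differences between days were called for 60 genes with no filter, of which 22 belong to 26 genes that had no read in 8 libraries, and for 12 with the 10 CPM minimum, all of them such genes; differences between dates for 1 gene with no filter. Of 1328 values of single genes and lists under alternatives, 1290 counted as kept. For a gene this means the same direction and side of the threshold. As edgeR called 0 genes in each of these settings, the side of the threshold never changed. Most of the genes were chosen for one sign in 7 of 7 pairs, which leaves little room to turn. The count of kept values is therefore no measure of robustness. For a list it means a median that moved by less than the SD of its pair medians, whatever its sign, and 1 list value moved further. The genes that turned were Glul (0.0034 with median-ratio scaling, 0.074 with 9 pairs), Slc1a3 (-0.0050) and Txndc15 (-0.028) with upper-quartile scaling, Dnmt1 (0.018, against -0.32 with 7 pairs), Rpl23 (0.26), Slc1a2 (-0.0043) and Txndc15 (-0.30) with 9 pairs, and Rpl23 (0.073) with no replicate block. With 1 pair left out, 12 genes turned: Atp1b2 (-0.23 to 0.13), Etv5 (-0.22 to 0.040), Glul (-0.17 to 0.085), Hey1 (-0.32 to 0.14), Itgam (-0.24 to 0.83), Rn28s1 (-0.24 to 0.47), Rpl23 (-0.36 to 0.25), Slc1a2 (-0.14 to 0.32), Slc1a3 (-0.085 to 0.14), Tubb3 (-0.027 to 0.13), Txndc15 (-0.088 to 0.17) and Vcan (-0.14 to 0.18). Without day 7 replicate 2, the median of chemokines and cytokines was -0.055 against 0.31, a change of sign that the rule for lists counts as kept.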
